A study of Rattus norvegicus with 23 samples.

Results

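The hearts described here came from rats that were healthy before surgery and then lived with a transplanted kidney. It was taken either from a donor with chronic kidney disease (CKD) or from a healthy donor. The 12 libraries, of 23 in the series, were chosen by their titles: 6 with a CKD donor and a healthy recipient (CD-HR) and 6 with a healthy donor and a healthy recipient (HD-HR). Each library was made from the heart apex of a single rat of the inbred Lewis strain, so that the grafts were isografts. The labels give neither the age nor the sex of the rats, and they name no transgene.

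In the CD-HR group CKD had been induced in the donor alone. CKD had been produced in donors by coagulating branches of both renal arteries, followed by L-NNA, which blocks nitric oxide synthase (200 mg/L, given in drinking water), and chow with 6% NaCl. Both were stopped once 24-hour protein loss in urine had risen to 200 mg, and donors were used when it stood at 100 mg without them. The HD-HR donors and all 12 recipients had intact kidneys before surgery. Every recipient in both groups underwent orthotopic left kidney transplantation, with 30 minutes each of cold and warm ischaemia, and lost the native kidney on the right 10 to 14 days afterwards. From then on the graft was the only kidney, so healthy recipient here means a rat without CKD before surgery. Hearts were collected 6 weeks after transplantation. A heart of the HD-HR group therefore carries the surgery, ischaemia, anaesthesia and nephrectomy as well, and only the history of the graft differs by label. A transplanted CKD kidney brings the ablation, L-NNA and salt history of its donor with it, and these cannot be told apart.

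The kidney and heart are linked through blood pressure, fluid volume, the renin-angiotensin system, phosphate and FGF23, and solutes that a failing kidney retains. In CKD the left ventricle commonly hypertrophies and becomes fibrotic, and in rodents this goes with re-expression of fetal genes and lower expression of fatty acid oxidation genes. The comparison of CD-HR with HD-HR addresses whether a diseased graft changes the transcriptome in the heart of a recipient that had no CKD before surgery. The deposited files hold Ensembl rat identifiers without gene names, and 0 of 26405 identifiers could be matched in the RefSeq table of assembly GRCr8. Genes are therefore given by identifier, and no function, sequence or coordinate is given. The 43 lists of cardiac, metabolic, immune and cell type genes could not be applied, so neither the labelled tissue nor the presence of other cell types was checked against markers.

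Depth ran from 7391929 to 12169291 counts in CD-HR and from 7605675 to 11484365 in HD-HR. None of 8 measures of the libraries differed between the groups after adjustment (two-sided exact permutation tests, smallest Benjamini-Hochberg value 0.372). The share of counts in the 10 most abundant genes was 60.7% ± 4.85 in CD-HR (SD, n = 6) and 60.0% ± 2.99 in HD-HR (SD, n = 6), with an exact permutation p = 0.786. For each counted read there were 0.843 to 10.7 non-unique alignments in CD-HR, with CD-HR5 at the top, and 1.27 to 3.61 in HD-HR. The animal names follow the groups closely: HD-HR1 to HD-HR5 have the numbers 22, 24, 25, 26 and 27 and HD-HR6 has 51, while CD-HR2 to CD-HR6 have 3, 4, 5, 7 and 8 and CD-HR1 has 29. If these numbers mark a time or batch, it and the donor group cannot be told apart, although all 12 names share the prefix 13.

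The hearts did not separate fully by donor. Principal components were taken over 10957 genes with a mean level of 1 CPM or more (TMM-scaled counts relative to library size, on a log2 scale). The first accounted for 23.2% of the variance and the next for 16.6%. On the first axis CD-HR averaged 10.3 ± 8.68 (SD, n = 6) and HD-HR -10.3 ± 22.3 (SD, n = 6). The exact permutation p was 0.0498, and 0.372 after adjustment over the 8 measures. HD-HR1 stood at -46.1 on this axis, and HD-HR6 (-20.5), HD-HR3 (-12.1) and HD-HR5 (-8.90) also lay below every CD-HR library. HD-HR2 (15.4) and HD-HR4 (10.6) lay among the CD-HR libraries, which ran from 1.10 to 21.3.

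**Figure D1:**
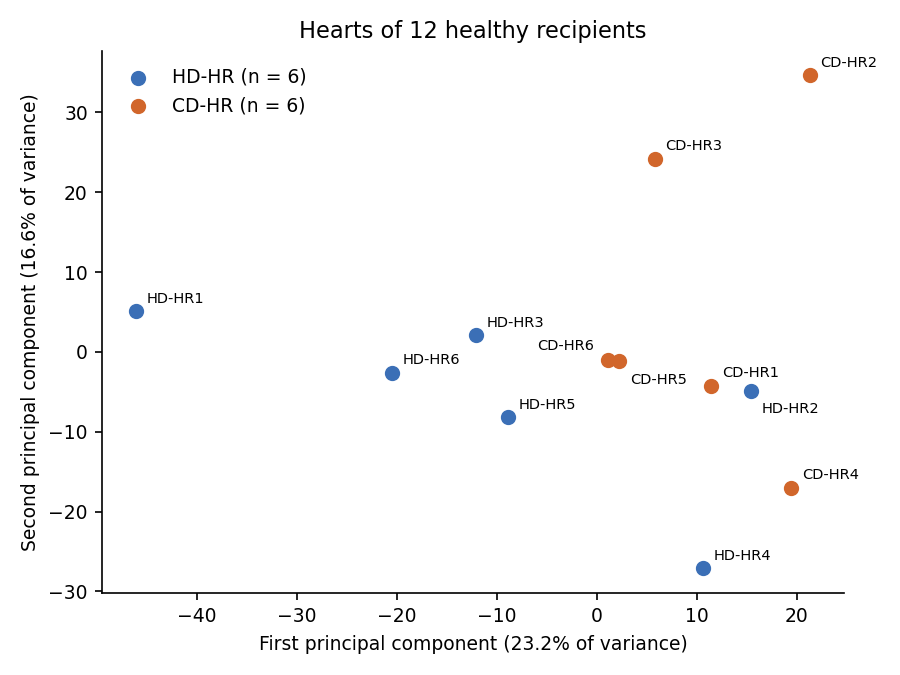
First and second principal components (axes, with the share of variance) of log2 CPM in the 12 hearts of healthy recipients, coloured by donor. HD-HR1 stands apart at -46.1 on the first component, and the other HD-HR hearts spread from -20.5 to 15.4. Of these, only HD-HR2 and HD-HR4 lie within the range of the CD-HR hearts on that component.

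Hearts of different donor groups differed from each other about as much as hearts within a group. The root mean square log2 difference over these genes had a median of 0.531 in the 36 pairs between groups, 0.556 in the 15 pairs within CD-HR and 0.508 in the 15 pairs within HD-HR. CD-HR1, CD-HR3, CD-HR4 and CD-HR6, and also HD-HR2, were closer in the median to the other group than to their own. The spread between rats was somewhat wider with a CKD graft: the median SD of log2 CPM per gene was 0.297 in CD-HR and 0.258 in HD-HR. Leaving out any CD-HR library in turn gave 0.282 to 0.301, and leaving out any HD-HR library gave 0.248 to 0.262. This difference in spread was not tested.

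No gene passed the edgeR quasi-likelihood test for a difference by donor. Of 11568 genes tested, 0 (0%) were called at an adjusted p under 0.05, and the smallest adjusted p was 0.398. An unadjusted p under 0.05 was found for 879 genes (7.6%), against 578.4 for an even distribution of p-values. Of these, 423 (3.66%) were higher and 456 (3.94%) lower in CD-HR. In 33 genes (0.285%) the groups did not overlap, with all 6 CD-HR hearts above all 6 HD-HR hearts in 15 (0.13%) and below them in 18 (0.156%). limma-voom also called 0 genes (0%), with 764 at an unadjusted p under 0.05, while DESeq2 called 11 (0.2%). Without CD-HR6, edgeR called 1 gene.

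**Figure D2:**
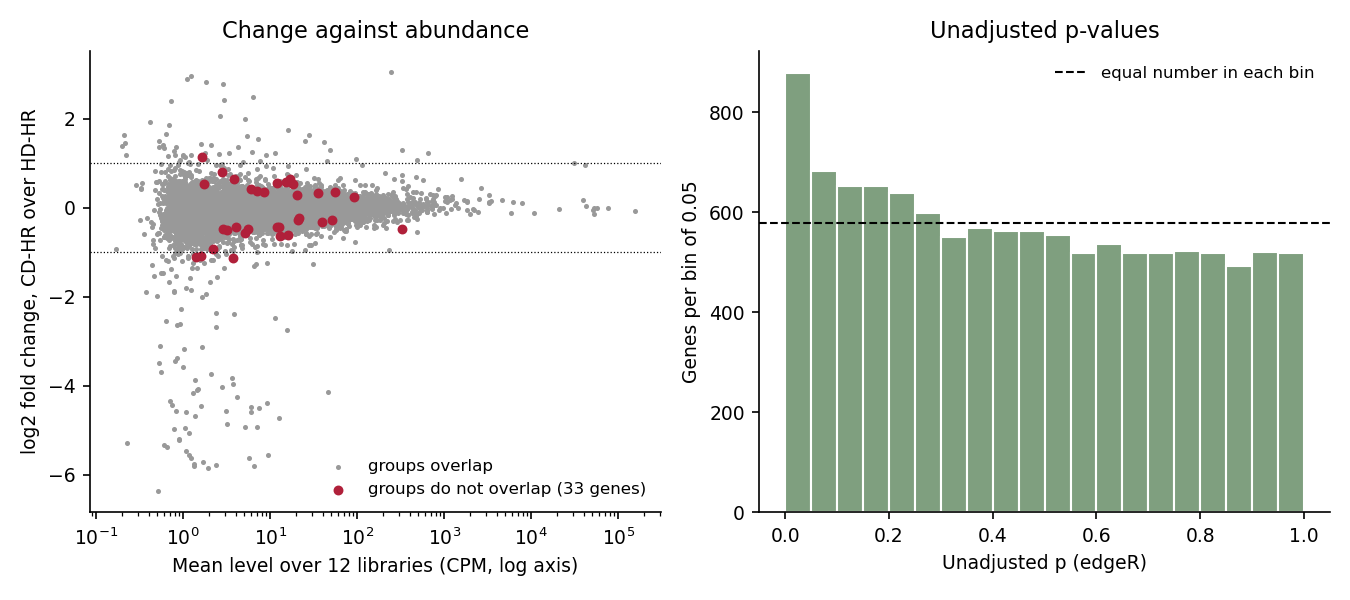
Left, log2 fold change of CD-HR over HD-HR for each tested gene against its mean level over the 12 hearts in CPM (log axis), with the 33 genes whose groups do not overlap in red and dotted lines at 2-fold. Right, number of genes per bin of unadjusted edgeR p. The lowest bin holds 879 genes against 578.4 for an even distribution (dashed line), and most genes beyond 2-fold lie at low levels.

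Most fitted changes were small, and for most genes the data bounded them. The median absolute log2 fold change was 0.13 and the median standard error 0.17. The 95% interval of the fold change lay wholly within 2-fold in either direction for 10197 genes (88.1%) and wholly within 1.5-fold for 7048 (60.9%). For the remaining genes the interval reached past these folds in at least 1 direction.

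How tight these bounds were depended on how abundant a gene was. In the 611 genes whose mean was under 1 CPM, the median standard error was 0.42, and 26.4% had an interval within 2-fold. Among 5393 genes at 1 to 10 CPM the median standard error was 0.22 and the share 85.7%. At 10 to 100 CPM, 4993 genes had a median standard error of 0.13, and 97.5% were bounded within 2-fold. The 528 genes at 100 to 1000 CPM were similar, at 0.13 and 96%. The 43 genes at 1000 CPM and over, which held 71% of the counts, had a wider standard error of 0.16, with 90.7% bounded within 2-fold.

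The direction of the weak differences also varied with abundance. Under 1 CPM, 17 genes with an unadjusted p under 0.05 were higher in CD-HR and 47 lower, together 10.5% of that class. At 1 to 10 CPM, 148 were higher and 247 lower (7.32%). At 10 to 100 CPM, 213 were higher and 152 lower (7.31%). At 100 to 1000 CPM, 43 were higher and 10 lower (10%). The share over all genes was 7.6%. The median log2 fold change of all genes in a class rose from -0.085 under 1 CPM to 0.12 in the 43 genes at 1000 CPM and over. Over all genes of at least 100 CPM the split was 45 higher and 10 lower. It was 22 and 8 without CD-HR2, the library in which 13.5% of all tested genes had their highest level of the 12. None of these genes passed the adjusted test. Genes can vary together, so these splits do not count independent genes, and the trend with abundance was not tested.

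The 4 genes named here had the smallest p in each direction, counting genes whose mean was 1 CPM or more. None passed: each had an adjusted p of 0.398 by edgeR, so their levels are given as the nearest that the comparison came to a difference.

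ENSRNOG00000001766 was the gene with the smallest p among those higher with a CKD graft. In HD-HR its level had a lowest value of 20.3 CPM, a median of 26.3 and a highest of 44.2. In CD-HR the corresponding values were 25.3, 64.1 and 88.7 CPM. CD-HR6, at 25.3 CPM, and CD-HR3, at 41.9, lay inside the HD-HR range, and the other 4 CD-HR hearts stood above it. The means were 60.1 ± 23.1 CPM in CD-HR (SD, n = 6) and 28.9 ± 9.27 in HD-HR (SD, n = 6), with a log2 fold change of 1.06 ± 0.23 (SE) and a 95% interval from 0.58 to 1.53. Without CD-HR6 the log2 fold change was 1.21 and the edgeR adjusted p 0.0147. CD-HR6 was the lowest CD-HR heart for this gene and was left out only as every heart was in turn. DESeq2, with all hearts, gave 1.06 and an adjusted p of 0.0202.

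ENSRNOG00000002224 was higher in every CD-HR heart than in any HD-HR heart. Its HD-HR levels ran from 10.2 to 15.6 CPM with a median of 13.4, and its CD-HR levels from 16.4 to 33.3 CPM with a median of 18.4. CD-HR2, at 33.3 CPM, stood well above the next heart, at 20.3. The log2 fold change was 0.65 ± 0.15 (SE, 95% interval 0.34 to 0.96), and without CD-HR2 it was 0.47 with an edgeR adjusted p of 0.909. DESeq2 called this gene as well (adjusted p = 0.0332).

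ENSRNOG00000008168 was a gene of low level that was lower in every CD-HR heart than in any HD-HR heart. Its HD-HR levels ran from 1.58 to 2.73 CPM with a median of 1.73, and its CD-HR levels from 0.735 to 1.27 CPM with a median of 0.812. A total of 5 CD-HR hearts lay between 0.735 and 0.828 CPM, and CD-HR6 stood at 1.27. The log2 fold change was -1.12 ± 0.24 (SE, 95% interval -1.62 to -0.62).

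ENSRNOG00000008837 had the largest fitted difference of the 4. In HD-HR it ran from 1.75 to 20.7 CPM with a median of 3.27, the highest values being those of HD-HR1 (20.7) and HD-HR6 (7.29). In CD-HR it ran from 0.818 to 1.85 CPM with a median of 1.15, so that the groups met at CD-HR6 (1.85) and HD-HR5 (1.75). The log2 fold change was -2.39 ± 0.54 (SE, 95% interval -3.51 to -1.26), and without HD-HR1 it was -1.56.

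**Figure D3:**
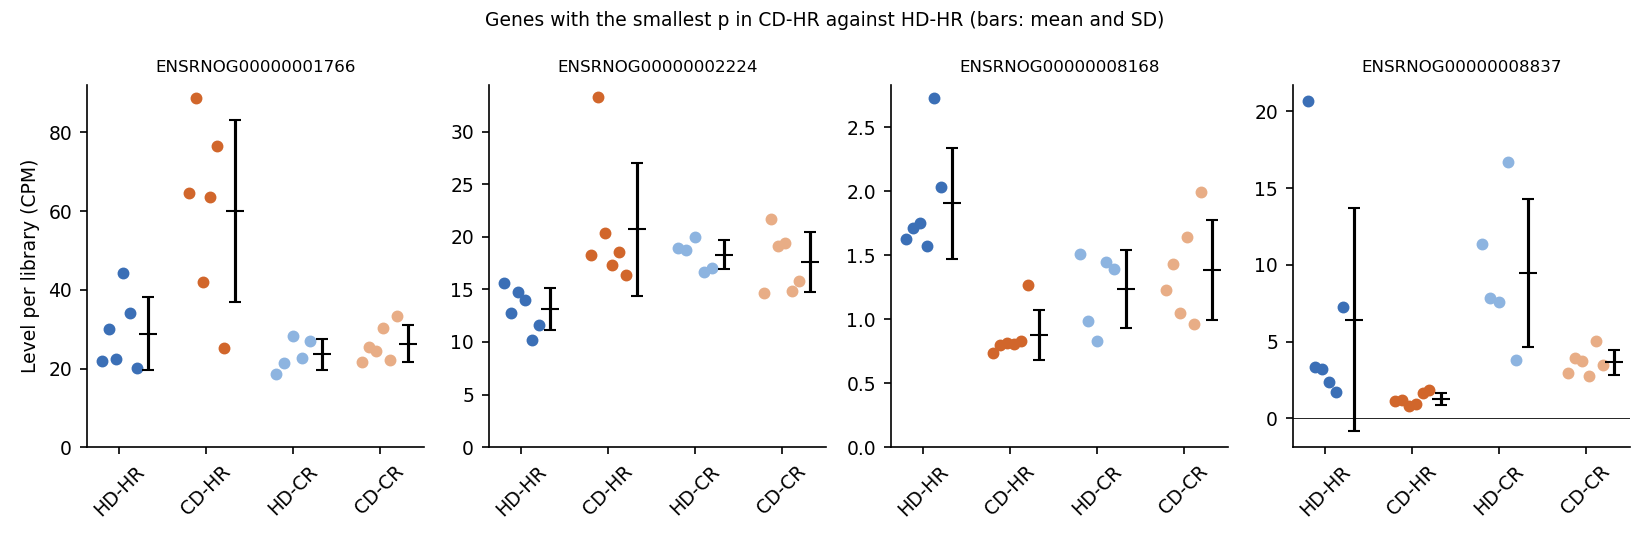
Level in CPM of the 4 genes with the smallest p, 1 panel per gene, for each heart of the 4 groups of the series (points) with the group mean and SD beside them. Only the first 2 groups in each panel belong to the comparison in healthy recipients. Within it CD-HR2 (ENSRNOG00000002224), CD-HR6 (ENSRNOG00000008168) and HD-HR1 (ENSRNOG00000008837) lie away from the rest of their groups. For ENSRNOG00000001766 the CD-HR hearts are spread from 25.3 CPM (CD-HR6) to 88.7 CPM (CD-HR2).

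The 11 genes that DESeq2 called, of 5513 with an adjusted p from that tool, were 10 higher (0.181%) and 1 lower (0.0181%) in CD-HR, with DESeq2 adjusted p-values from 0.0202 to 0.0487. By edgeR their adjusted p-values ran from 0.398 to 0.472, and by limma-voom from 0.544 to 0.832. In 3 of the 11 the groups did not overlap, against 0.285% of all tested genes. CD-HR2 held the highest level of the 12 hearts in 9 of the 11, against 13.5% of all tested genes. The calls were made on these same hearts, which favours such counts, so they are no check. Without CD-HR2, and likewise without HD-HR6, DESeq2 called 0 genes. Without HD-HR1, HD-HR3, HD-HR4 or HD-HR5 it called 1, 2, 5 or 4, and it called 36 without HD-HR2 or CD-HR4, 23 without CD-HR3 or CD-HR5, 35 without CD-HR6 and 14 without CD-HR1. The number of calls by this tool thus turned on single hearts.

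Of these 11, the gene with the largest DESeq2 fold change upward varied widely between rats. Its HD-HR levels ran from 9.34 to 93.8 CPM, and its CD-HR levels were 628.2 CPM in CD-HR1, 1333 in CD-HR2, 216.3 in CD-HR3, 24.2 in CD-HR4, 366.8 in CD-HR5 and 56.9 in CD-HR6. A total of 4 CD-HR hearts therefore exceeded every HD-HR heart, and CD-HR4 and CD-HR6 did not. The single gene that was lower stood at 91.2 CPM in HD-HR1, 14.4 in HD-HR6 and at most 2.68 in the other HD-HR hearts, against at most 1.66 CPM in CD-HR. HD-HR1 alone held 83.2% of its level summed over the HD-HR hearts.

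A total of 171 genes differed by more than 2-fold between the group fits, 114 lower and 57 higher in CD-HR. They were chosen on these fitted values, and none passed the adjusted test. The filter on low counts had used all 4 groups: with the 12 libraries alone, 56 of the 171 were tested, 27 lower and 29 higher. All 56 stayed beyond 2-fold, but they had been chosen on the same hearts, so this is no check. Of the 114 lower genes, 40 had a mean under 1 CPM and 5 a mean of at least 10 CPM. In 66 of the 114, a single heart held more than 50% of the level summed over the HD-HR group. HD-HR1 was the highest of the 12 hearts in 74, and in 10.7% of all tested genes. Summed over the 114 genes, the level was 2288 CPM in HD-HR1, 456.6 in HD-HR6, 226.2 in HD-HR3, 212.2 in HD-HR5, 167.6 in HD-HR4 and 120.3 in HD-HR2. In CD-HR the sum ran from 71.8 to 165.3 CPM. HD-HR1 thus stood far above every other heart, and HD-HR2 lay within the CD-HR range.

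The 57 higher genes were carried by other hearts. Their summed level was 5900 CPM in CD-HR2, 4419 in CD-HR1, 3272 in CD-HR5, 2130 in CD-HR3, 1327 in CD-HR4 and 1323 in CD-HR6, against 954 to 1583 CPM in HD-HR. CD-HR2 was the highest of the 12 hearts in 28 of these genes and CD-HR1 in 20. Over all tested genes they were the highest in 13.5% and 6.86%. By summed level CD-HR4 and CD-HR6 lay inside the range of HD-HR. Of the 57 genes, 19 had a mean under 1 CPM and 12 a mean of at least 10 CPM. The highest mean was 652.4 CPM, so abundant genes weigh most in the sum. By the median level over the 57 genes, HD-HR ran from 0.713 to 1.10 CPM. On that measure CD-HR4 (0.734) lay inside the range and CD-HR6 (1.27) above it. In heart tissue, fewer cells of a type and less RNA per cell cannot be told apart, and the part that other cell types had in these differences was not tested, since marker genes could not be identified.

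**Figure D4:**
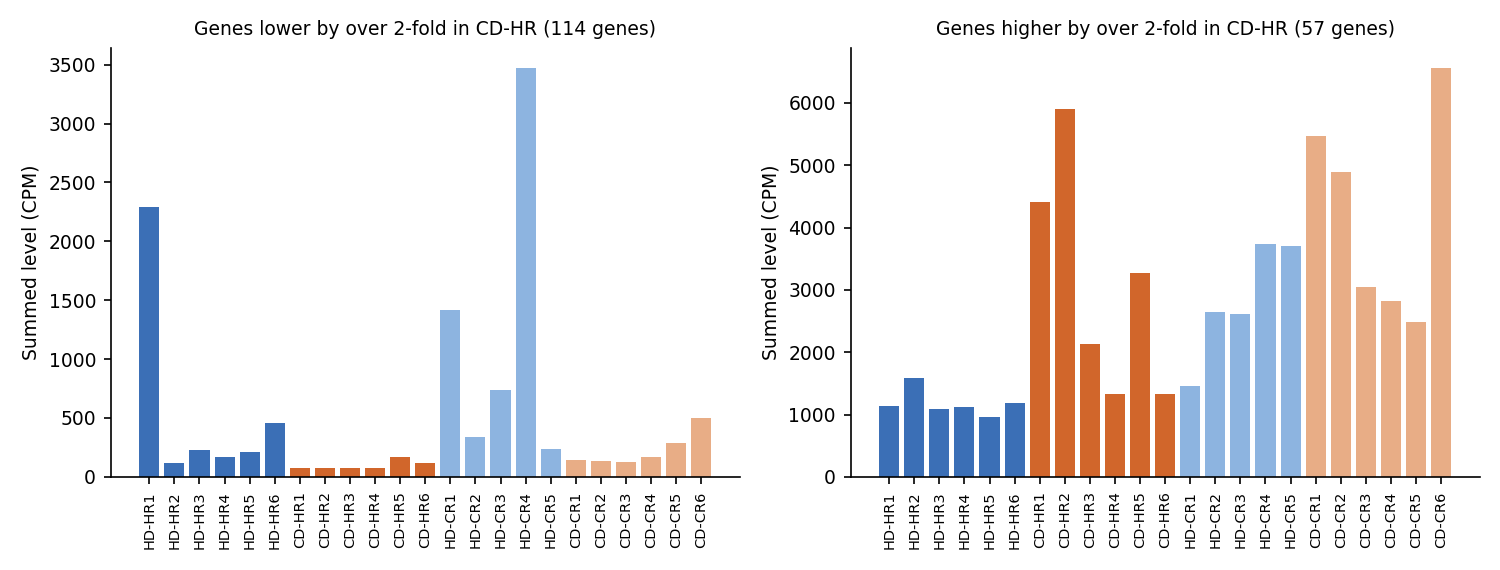
Summed level in CPM (bars, from 0) of the 114 genes lower and the 57 genes higher by over 2-fold in CD-HR, for each of the 23 hearts, coloured by group. HD-HR1 (2288 CPM) leads the HD-HR hearts on the left, as HD-CR4 (3470) and HD-CR1 (1414) lead the HD-CR hearts, whose counts entered the filter on low counts.

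The other rats of the series offered the same donor contrast in other hearts. Those recipients had CKD themselves and received a CKD kidney (CD-CR, n = 6) or a healthy kidney (HD-CR, n = 5), and the contrasts have no library in common. There 3 genes (0.0259%) passed the edgeR test and 961 (8.31%) had an unadjusted p under 0.05, with 487 (4.21%) higher and 474 (4.1%) lower in CD-CR.

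The filter on low counts had used all 4 groups, so that counts in CKD recipients helped decide which genes were tested, which can favour a difference there. The lookup was therefore made with genes filtered and fitted on the 12 libraries of healthy recipients alone. Of the 27 genes lower by over 2-fold in that fit, 25 had the same direction in CKD recipients, 13 were lower by over 2-fold and 16 had an unadjusted p under 0.05 with the same direction (59.3%), against 5.99% of the 10819 genes in that fit. None of the 27 had an unadjusted p under 0.05 in the opposite direction. Their median log2 fold change was -1.18 in healthy and -0.84 in CKD recipients. Of the 29 genes higher by over 2-fold in that fit, 28 had the same direction, 6 were higher by over 2-fold and 4 (13.8%) had an unadjusted p under 0.05 with the same direction, against the same 5.99%. Their median log2 fold change was 1.30 in healthy and 0.55 in CKD recipients. The 27 are among the 114 lower genes and the 29 among the 57 higher genes. Both sets varied together across the hearts of CKD recipients (values below), so these tallies do not count independent genes.

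HD-HR1 and HD-CR4 had the highest sums over the 27 genes, as over the 114. The summed level of the 27 was 919.5 CPM in HD-HR1 and 85.9 to 221.9 CPM in the other HD-HR hearts, against 51.9 to 97.2 CPM in CD-HR. In CKD recipients it was 1716 CPM in HD-CR4, 730.5 in HD-CR1, 393.6 in HD-CR3, 193.3 in HD-CR2 and 141.9 in HD-CR5, against 83.2 to 260.1 CPM in CD-CR. HD-CR4, HD-CR1 and HD-CR3 lay above every CD-CR heart, and HD-CR2 and HD-CR5 within the CD-CR range.

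For all 114 genes the values in CKD recipients are a description, since the filter used those hearts. Their median log2 fold change was -2.48 there and -2.57 in healthy recipients, and 107 of the 114 had the same direction. Across the 11 hearts of CKD recipients the median Pearson correlation between pairs of the 114 was 0.48, so that they are not independent observations. It was 0.45 between pairs of the 57 higher genes, against 0.00035 between pairs of all tested genes. Without HD-HR1 and HD-CR4, the hearts with the highest sums, 102 of the 114 were tested, and their median log2 fold change was -1.57 in healthy and -1.89 in CKD recipients. The 57 higher genes had a median of 0.53 in CKD and 1.36 in healthy recipients.

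In the fit of the 12 libraries alone, 790 genes had an unadjusted p under 0.05, and 615 of them (77.8%) had the same direction in CKD recipients, where 60% of all genes in that fit did. An unadjusted p under 0.05 in CKD recipients with the same direction was found in 139 of them (17.6%), and with the opposite direction in 5 (0.633%). Over all genes in that fit these shares were 5.99% and 1.63%. Across the 11568 genes tested with all groups, which are not independent, the log2 fold changes of the contrasts correlated at 0.63 (Pearson) and 0.30 (Spearman). Without the 171 genes beyond 2-fold the values were 0.29 and 0.28. The filter on low counts for these genes used the hearts of CKD recipients too, so the correlations are a description.

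**Figure D5:**
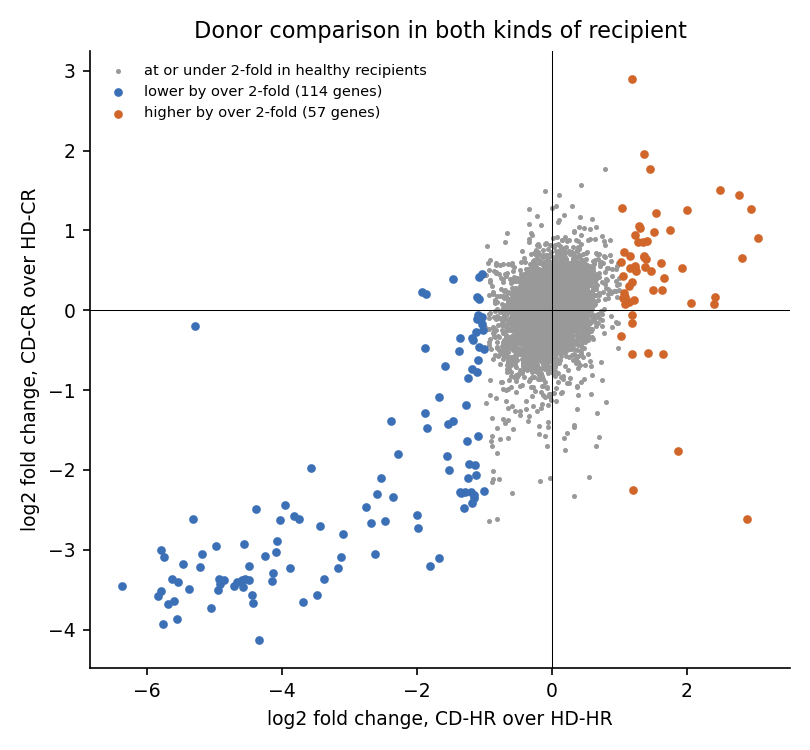
Log2 fold change of a CKD over a healthy donor kidney in healthy recipients (horizontal) and in CKD recipients (vertical) for each tested gene. The 114 genes lower by over 2-fold in healthy recipients (blue) lie mostly in the lower left, with a median of -2.48 on the vertical axis, and the 57 higher genes (orange) have a median of 0.53. The filter on low counts that admitted the genes used hearts of both kinds of recipient.

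Of the 4 named genes, 1 differed by over 2-fold in the same direction in CKD recipients as well. There ENSRNOG00000001766 stood at 26.3 ± 4.70 CPM with a CKD kidney (SD, n = 6) and 23.6 ± 3.94 with a healthy kidney (SD, n = 5), with a log2 fold change of 0.16 ± 0.24 (SE). ENSRNOG00000002224 stood at 17.6 ± 2.87 and 18.3 ± 1.37 CPM (log2 -0.06 ± 0.15), and ENSRNOG00000008168 at 1.38 ± 0.389 and 1.23 ± 0.304 CPM (log2 0.17 ± 0.25). The groups overlapped for these 3 genes. ENSRNOG00000008837 was lower with a CKD kidney here too, at 3.64 ± 0.813 against 9.46 ± 4.84 CPM (log2 -1.38 ± 0.48, edgeR adjusted p = 0.444). Its groups also overlapped, with HD-CR5 at 3.83 CPM and CD-CR5 at 5.04. The difference between the donor effects in the different recipients did not pass the adjusted edgeR test for any of the 4. Their unadjusted p-values in edgeR were 0.0129, 0.00286, 0.00105 and 0.184 in the order above. The 4 genes were chosen for a small p in healthy recipients, whose values enter this difference. That choice favours small unadjusted p-values in this test, so they are no check. Over all genes 1 (0.00864%) passed this test of the difference, with 377 (3.26%) at an unadjusted p under 0.05.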

How the data were processed

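Polyadenylated RNA of the heart apex was sequenced with a directional kit, 1 library per rat, per the labels' protocols. The authors deposited whole-number read counts per Ensembl rat gene, not normalized. STAR 2.4.2a, Picard and HTSeq 0.6.1p1 with build Rnor_5.0 are named in the submitters' processing notes. Neither the annotation release nor the strand setting or any removal of duplicates was given in the sources used here. Overlapping, antisense or near-identical genes may be counted imperfectly. The 5 summary lines of each file entered neither library sizes nor tests. In the 12 libraries they included 13.5 to 21.5% of reads outside any feature and 0.958 to 1.42% that were ambiguous.

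Groups came from sample titles. All 23 libraries of the 4 groups were fitted together with edgeR 4.0.16 in R 4.3.3 (filterByExpr, TMM, robust glmQLFit, glmQLFTest), with a pooled estimate of the spread. Benjamini-Hochberg adjustment ran over 11568 genes, with 0.05 as threshold. Standard errors are the log2 fold change divided by the square root of F, and 95% intervals use the t quantile of the test. CPM values are TMM-scaled, and log2 CPM used a prior count of 2. DESeq2 1.42.0 and limma-voom (limma 3.58.1) were alternatives. The code was tested on simulated counts. Chi-square per degree of freedom between libraries of a group was at least 9.01 (genes with 10 or more counts), so no pair agreed within sampling noise. Counts come from amplified libraries without molecular identifiers, and p-values measure the spread between rats. Named genes were the 2 with the smallest p in each direction and a mean of 1 CPM or more in the 12 libraries. The comparison, the lists and these rules were chosen with earlier results of these data known.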

Additional observations from a re-analysis of the deposited data

Results flagged for a closer look

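In 40 groups of 5 or 6 hearts checked for a heart far from the others, 5 stood out, where chance alone gives about 1 in 20. All 5 concern genes or gene sets chosen on values of these same hearts, for which that rate need not hold. CD-HR2 stood at 33.3 CPM for ENSRNOG00000002224, with the next CD-HR heart at 20.3. CD-HR6 stood at 1.27 CPM for ENSRNOG00000008168, with the next at 0.828. HD-HR1 stood at 20.7 CPM for ENSRNOG00000008837, with the next HD-HR heart at 7.29. HD-HR1 also had a summed level of 2288 CPM over the 114 genes lower by over 2-fold, with the next at 456.6, and those genes were chosen on values that include this heart. HD-HR2 had a summed level of 1583 CPM over the 57 genes higher by over 2-fold in CD-HR, with the next HD-HR heart at 1186.

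For 1 gene the donor effect differed between kinds of recipient. ENSRNOG00000011557 stood at 4.77 ± 1.35 CPM in CD-HR (SD, n = 6) and 3.21 ± 1.03 in HD-HR (SD, n = 6), and at 1.68 ± 0.996 in CD-CR (SD, n = 6) and 7.04 ± 2.23 in HD-CR (SD, n = 5). The log2 fold change was 0.54 ± 0.30 (SE) in healthy and -2.09 ± 0.32 in CKD recipients, and their difference was -2.64 ± 0.44 (edgeR adjusted p = 0.0304). The kind of recipient nearly coincides with the prefix of the animal names, which is 12 in 9 of the 11 CKD recipients and 13 in all 12 healthy recipients. With the prefix as a covariate the difference was -2.65 ± 0.45 (edgeR adjusted p = 0.0462). That covariate shifts both donor groups alike. It cannot tell a donor effect that differs by prefix from one that differs by kind of recipient.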

How the results depend on the processing

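Of 24 alternative settings, 22 also called 0 genes between CD-HR and HD-HR: DESeq2 called 11, and leaving out each library in turn gave 0 to 1. The replicate block called 0. Genes at an unadjusted p under 0.05 numbered 594 to 1261 over the settings. Genes beyond 2-fold numbered 2872 with no filter on low counts, 113 with a minimum mean of 1 CPM and 56 in the 2 groups alone. Of the 171 genes of the main fit, 112 were tested with that minimum mean and 56 in the 2 groups alone. A mean under 1 CPM was thus not the only reason that genes went untested in the 2 groups alone. DESeq2 called 36 genes between CD-CR and HD-CR and 2 for the difference between donor effects, against 3 and 1 by edgeR. The share of the 10 most abundant genes was 0.66 percentage points higher in CD-HR, and without single libraries it ran from -0.93 to 1.73, with -0.34 without HD-HR4 and -0.93 without CD-HR5. Log2 fold changes of the 4 named genes kept their direction in all 24 settings. Since these genes were chosen for their small p in the same hearts, a kept direction is no check. Genes bounded within 2-fold numbered 9835 to 10297 over the 22 alternative edgeR settings, and those bounded within 1.5-fold 6244 to 7196.

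The labels do not say that same-numbered hearts of the groups are pairs, and not every pair's correlation was above 0.1. Deviations from the group means correlated at 0.22 to 0.35 for numbers 2 to 5, but at -0.12 and -0.14 for numbers 1 and 6, and 4 of 6 CD-HR hearts correlated best with their own number. The settings without CD-HR1 and HD-HR6, without HD-HR1 and HD-CR4, without robust estimation, DESeq2 without single libraries, and the lookup in CKD recipients from the 12 libraries alone were chosen after seeing the data. The list medians could not be recomputed, since no list could be matched.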
